A study of Mus musculus with 3 samples.

Results

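CX3CR1+/F4/80+ tissue-resident macrophages were compared with Ly6G+/F4/80- neutrophils, both sorted from skin wounds of C57/B6 mice aged 8 weeks on day 3 after wounding. These are 2 of the 3 arrays of the series, and the third, of Ly6C+/F4/80+ inflammatory macrophages from the same kind of wound, is given only as a further level. All 3 samples were total RNA extracted with TRIzol and labelled with Cy3, and no genetic change or treatment other than the wound is named for any of them. All 55681 rows whose name starts with A_ were compared, out of 55821 rows in the table. The remaining 140 rows carry names of control features. The RNA is described as coming from several mice, and whether it was pooled on each array is not stated. Each cell type has 1 array, so no difference has a replicate check, and only sizes and counts are given, without a test.

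Neutrophils are short-lived granulocytes that enter a skin wound early, release granule enzymes and kill microbes, and Ly6G on their surface is commonly used to sort them. Macrophages engulf dead cells and debris, among them spent neutrophils, and release growth factors and cytokines during repair. F4/80 is a surface protein of mature mouse macrophages. CX3CR1 is the receptor for the chemokine fractalkine, and Ly6C is high on monocytes and on the macrophages newly made from them.

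The values were log2 signals relative to a point within each array, its 75th percentile, which lay at 0.01 in CX3CR1+ macrophages and at 0.00 in neutrophils. A difference is therefore a change in standing relative to that point and not an amount of RNA. A probe was called bright where it lay above that percentile, which 13920 probes did on each array. Probes no more than 1 log2 above the lowest value of their array were called at the floor. The lowest value was -8.47 in CX3CR1+ macrophages and -7.44 in neutrophils, and the floor held 12434 probes (22.3%) and 13094 probes (23.5%), respectively. The median probe lay at -3.78 in CX3CR1+ macrophages and at -3.29 in neutrophils, and the highest value was 6.53 and 7.70. The files do not pair probes with genes, so probes are given by their names alone, and neither labelled cell type could be checked against its marker genes.

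**Figure D1:**
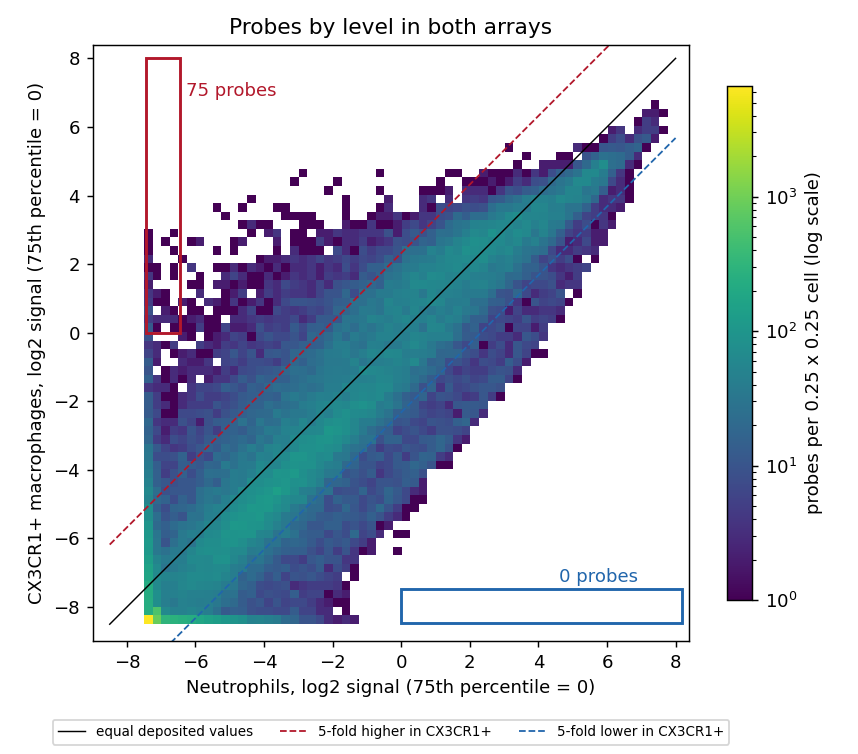
Log2 signal of the probes in CX3CR1+ macrophages against neutrophils, with the number of probes in each cell as colour (log scale), a solid line at equal values and dashed lines at 5-fold. The box that is bright in CX3CR1+ macrophages and at the neutrophil floor holds 75 probes, and the opposite box holds 0.

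Most probes stood lower in CX3CR1+ macrophages than in neutrophils on the deposited scale. The median difference, CX3CR1+ macrophages minus neutrophils, was -0.85 log2, and 16831 of 55681 probes (30.2%) were above 0. At the 5-fold threshold, 5280 probes were lower in CX3CR1+ macrophages, which is 9.48% of all probes, and 2894 were higher, which is 5.2%. These shares are the counts over all probes, so they are also the background against which any smaller set is read below.

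The size of the typical difference depended on how bright the probe was. The probes were divided into 10 equal groups by the mean of both arrays. In the dimmest group the median difference was -1.03, and its 10th and 90th percentiles were -1.08 and -0.99. Both values of such a probe lay near the lowest value of its array. The median rose through the middle of the range, reached 0.14 in the ninth group, and fell back to -0.68 in the brightest. Above that the shift grew again: between mean values of 4 and 5 the median difference was -0.91 over 1235 probes, between 5 and 6 it was -1.02 over 608 probes, and between 6 and 8 it was -1.37 over 86 probes. Of those 86 probes, 0 were higher in CX3CR1+ macrophages. The same rise and fall appeared when probes were ordered by the Ly6C+ array, which enters neither side of the difference. There the median was -1.03 in the dimmest group, 0.43 in the ninth and -0.27 in the brightest.

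The 5-fold calls followed a different course from the median. The dimmest of the 10 groups held 0 calls in either direction, and the next held 0 higher and 199 lower. Lower calls were most frequent in the third group, with 1279 lower and 168 higher. From the sixth to the eighth group the counts in the 2 directions came close, with 526, 532 and 526 higher and 632, 630 and 537 lower. In the brightest group 224 probes were lower and 12 were higher.

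**Figure D2:**
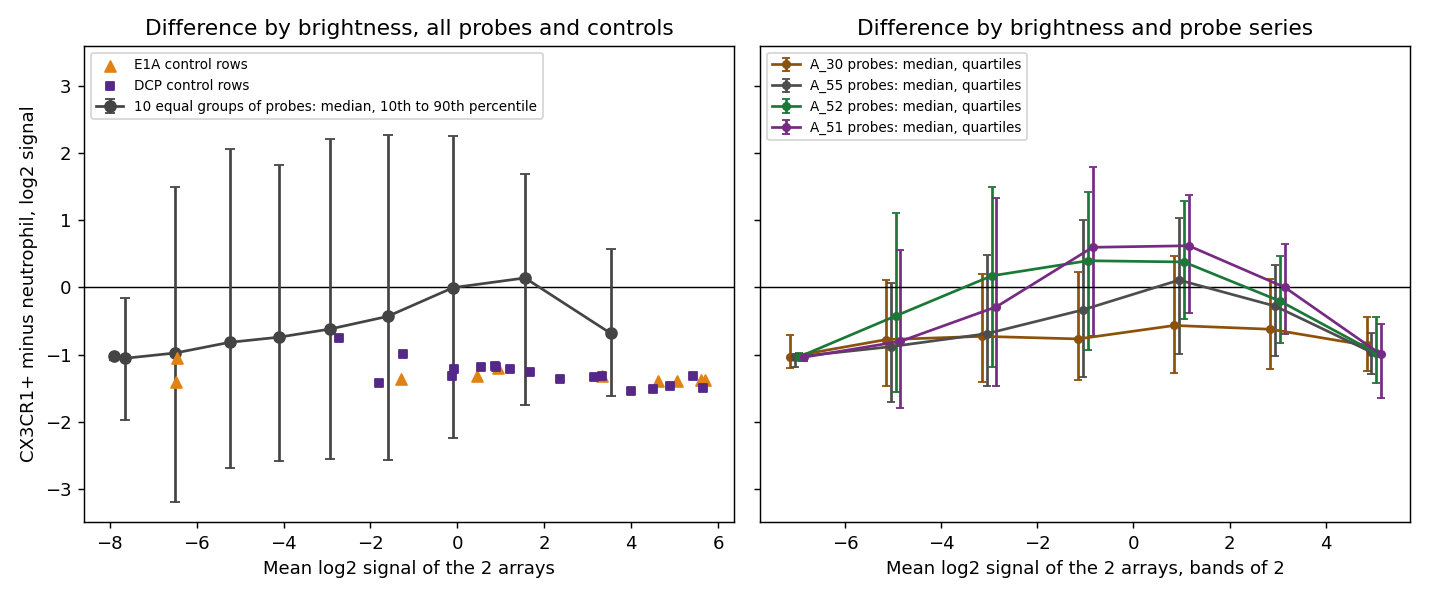
Difference in log2 signal, CX3CR1+ macrophages minus neutrophils, against mean log2 signal. On the left are the medians of 10 equal groups of probes (bars, 10th to 90th percentile) with E1A and DCP control rows, which lie below 0 at every brightness; on the right are medians and quartiles for 4 probe series, with A_51 and A_52 above 0 in the middle of the range and A_30 below it.

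Probes of similar brightness differed by their series, the first part of the probe name. The series are A_30 with 16251 probes, A_51 with 7048, A_52 with 5143, A_55 with 25000, A_65 with 236 and A_66 with 2003. In the dimmest band, with mean values between -8 and -6, the median difference was -1.03 for A_30 and -1.04 for A_51. Between -2 and 0 the medians parted to -0.77 over 1993 A_30 probes, -0.33 over 3210 A_55 probes, 0.40 over 854 A_52 probes and 0.60 over 1097 A_51 probes. Between 0 and 2 they were -0.57, 0.11, 0.38 and 0.62 in the same order, a gap of 1.19 log2 between A_51 and A_30. The quartiles of A_51 and A_30 overlapped in both bands. At mean values between 4 and 6 the medians lay closer, at -0.86 for A_30 and -0.999 for A_51.

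In this ordering by the mean of both arrays, the A_30 median stayed between -1.03 and -0.57 from -8 to 6, whereas that of A_51 went from -1.04 up to 0.62 and back to -0.999. Ordered by the Ly6C+ value instead, the A_30 median also rose and fell, from -1.04 between -8 and -6 to -0.29 between -2 and 0, -0.03 between 0 and 2 and -0.04 between 2 and 4, and then to -0.62 between 4 and 6. In that ordering A_51 exceeded A_30 by 0.82 log2 between -2 and 0 and by 0.76 between 0 and 2. The series stayed apart between 4 and 6, where A_51 exceeded A_30 by 0.62 and A_55 by 0.85. The balance of calls differed with the series too. Of the A_30 probes 3.83% were 5-fold higher and 7.99% lower, and of the A_51 probes 8.00% were higher and 10.6% lower. The files do not say what the probes of a series share in design or target, and its part in the gap was not tested.

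The far ends of the comparison pointed the other way from the bulk. At 2-fold, 24568 probes were lower in CX3CR1+ macrophages and 8303 were higher, so that 74.7% of the changed probes were lower. Of the lower probes 10270 were at the CX3CR1+ floor, and of the higher probes 1597 were at the neutrophil floor. The 9946 probes at the floor of both arrays had a median difference of -1.04, so the offset between the floors alone passes 2-fold. At 16-fold 1475 were lower and 878 higher. At 32-fold the order changed, with 199 lower and 445 higher, and the share of lower probes was 30.9%. At 64-fold 18 were lower and 247 higher, and at 128-fold 1 was lower and 119 higher. At 256-fold and 512-fold, 0 probes were lower, against 46 and 12 that were higher. Differences of this size often rested on a value at the floor: of the 247 probes that were 64-fold higher, 144 were at the neutrophil floor, and of the 18 that were 64-fold lower, 17 were at the CX3CR1+ floor. No detection call was used, so how far these folds depend on the floor is not known.

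Some of these probes were bright on their higher array, a limit that acts only through that array and is given as a description. At 32-fold 275 probes bright in CX3CR1+ macrophages were higher there, and 17 probes bright in neutrophils were lower. At 64-fold these counts were 176 and 0.

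**Figure D3:**
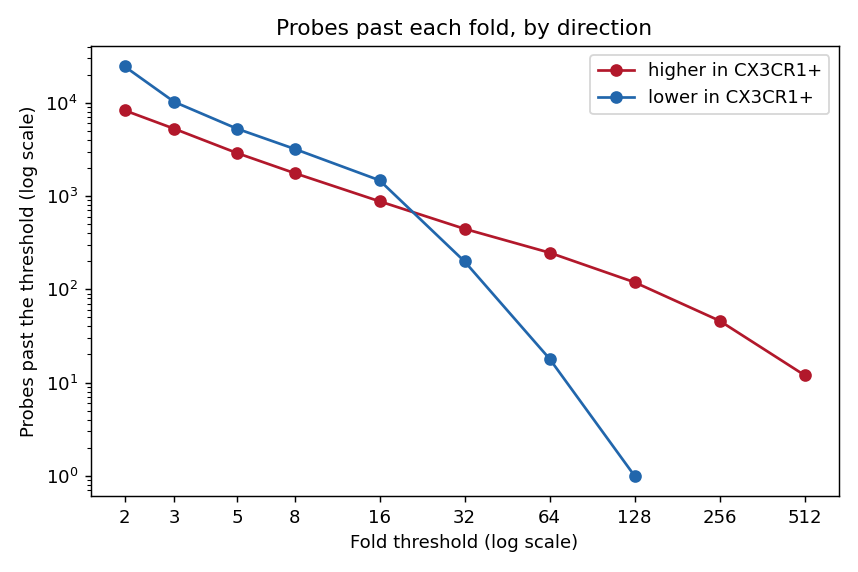
Number of probes higher (red) and lower (blue) in CX3CR1+ macrophages than in neutrophils at each fold threshold, on log axes. Lower probes are more numerous up to 16-fold and higher probes from 32-fold on.

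The probes past 5-fold are described here by brightness and floor, beside the shares over all 55681 probes. Over all probes, 25% were bright on each array, and 11388 probes were bright on both. At the floor were 22.3% in CX3CR1+ macrophages and 23.5% in neutrophils. The 2894 higher probes had a median of -0.63 in CX3CR1+ macrophages and -4.64 in neutrophils. Of them, 1194 (41.3%) were bright in CX3CR1+ macrophages, 825 (28.5%) were at the neutrophil floor, and 95 (3.28%) were bright on both arrays. The 5280 lower probes had a median of -5.74 in CX3CR1+ macrophages and -2.14 in neutrophils. Of them, 1564 (29.6%) were bright in neutrophils, 1615 (30.6%) were at the CX3CR1+ floor and 354 (6.70%) were bright on both arrays. In Ly6C+ macrophages the higher probes had a median of -0.43 and the lower probes a median of -7.32. The Ly6C+ level of the higher probes was thus close to the CX3CR1+ level, and that of the lower probes lay further below. Over all probes the Ly6C+ array also stood lower, with a median of -4.20 against -3.78 in CX3CR1+ macrophages. Its lowest value was -8.78 against -8.47, and 2327 of the lower probes were at the Ly6C+ floor.

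Probes that were bright on one array and at the floor of the other occurred in 1 direction only. Of the 13094 probes at the neutrophil floor, 75 (0.573%) were bright in CX3CR1+ macrophages. Their CX3CR1+ values ran from 0.04 to 2.95 with a median of 0.66, and their neutrophil values ran from -7.43 to -6.47 with a median of -7.29. In Ly6C+ macrophages the same 75 probes ran from -0.83 to 3.26 with a median of 1.10, and 67 of them were bright there. Among all 1194 probes that were 5-fold higher and bright in CX3CR1+ macrophages, 1160 were bright in Ly6C+ macrophages. How many of all bright CX3CR1+ probes were bright in Ly6C+ macrophages was not counted, so these overlaps have no background. In neutrophils 81.8% of all bright CX3CR1+ probes were bright. These 75 of all 55681 probes are given by series beside the size of each. The series also differ in brightness, with a CX3CR1+ median of -4.93 in A_30 and -1.82 in A_51. Bright probes were not counted by series, so no difference between series is read from these counts. The series A_55 held 36 among its 25000 probes, A_52 held 15 among 5143 and A_51 held 11 among 7048. A_30 held 10 among 16251, A_66 held 3 among 2003 and A_65 held 0 among 236.

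In the opposite direction, 0 of the 12434 probes at the CX3CR1+ floor were bright in neutrophils, and the highest neutrophil value among them was -1.27. Probes bright in Ly6C+ macrophages were likewise absent from the CX3CR1+ floor, with 0 probes and a highest Ly6C+ value of -2.32, so the gap held against both other arrays. At the floor of Ly6C+ macrophages, 305 probes were bright in neutrophils, with a median neutrophil value of 1.498 and a highest value of 6.29. In CX3CR1+ macrophages the same 305 probes ran from -5.92 to 3.93 with a median of -2.98, and 32 of them were bright. Of all probes bright in neutrophils, 81.8% were bright in CX3CR1+ macrophages. Both macrophage arrays are set here against the same neutrophil array.

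**Figure D4:**
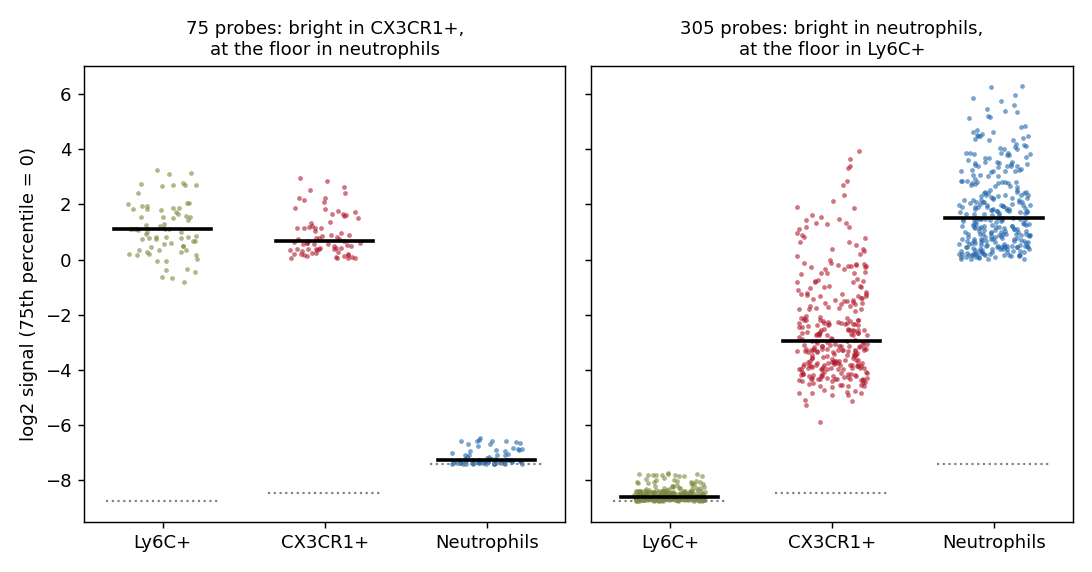
Log2 signal on the 3 arrays of the probes bright in CX3CR1+ macrophages and at the neutrophil floor (75 probes) and of those bright in neutrophils and at the Ly6C+ floor (305 probes), 1 point per probe, with bars at the medians and dotted lines at the lowest value of each array. In the second set the CX3CR1+ values, from -5.92 to 3.93, lie between the Ly6C+ floor and the neutrophil values.

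The CX3CR1+ array had a lower edge that followed the neutrophil value. Among 6568 probes with a neutrophil value between 0 and 2, the lowest CX3CR1+ value was -5.92. Among 4675 probes between 2 and 4 it was -2.58, among 2392 probes between 4 and 6 it was -0.53, and among 297 probes between 6 and 8 it was 3.13. The edge thus rose with each band and, within these bands, stayed above the CX3CR1+ floor. Expressed as a difference, the farthest that a CX3CR1+ value lay below its neutrophil value was 5.93 log2 in the first band (60.9-fold), 4.71 in the second (26.2-fold), 4.54 in the third (23.2-fold) and 2.90 in the fourth (7.46-fold). The 99th percentile of that distance was 4.69, 4.39, 3.83 and 2.63 log2 in the same bands. Below these 4 bands the edge reached the floor. Among 7952 probes with a neutrophil value between -2 and 0, the lowest CX3CR1+ value was -8.47, and 16 were at the CX3CR1+ floor.

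Larger distances occurred in Ly6C+ macrophages in all 4 bands. In the same bands of the neutrophil value, Ly6C+ values lay up to 10.73, 12.53, 14.66 and 14.89 log2 below, and 188, 84, 31 and 2 probes were at the Ly6C+ floor against 0 at the CX3CR1+ floor in each band. With the sides exchanged, neutrophil values lay up to 9.15 log2 below CX3CR1+ values between 0 and 2, 10.23 between 2 and 4, and 7.71 between 4 and 6, with 99th percentiles of 7.21, 5.46 and 2.44. The largest distances thus exceeded those of CX3CR1+ macrophages in these 3 bands, but the 99th percentile did not between 4 and 6. Of the 15 probes with a CX3CR1+ value between 6 and 8, 0 were lower in neutrophils. At the neutrophil floor were 66 of 6627 probes with a CX3CR1+ value between 0 and 2, 9 of 5873 between 2 and 4, and 0 of 1421 between 4 and 6. What set the edge was not tested.

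By the naming rule, the probes with the largest differences among 16452 that were bright on at least 1 of the 2 arrays are given with all 3 values. A_55_P1974687 had 2.86 in CX3CR1+ macrophages, 3.26 in Ly6C+ macrophages and -7.37 in neutrophils, 0.07 above the lowest value of that array, and the difference as deposited was 10.23 log2. A_52_P536494 had 2.64, 3.15 and -7.36 in the same order, a difference of 9.999 log2. Both were bright in both macrophage arrays and at the neutrophil floor. The size of these differences therefore depends on how signal near the background was treated, which is not known. Their order among probes at that floor has no meaning. On the lower side, A_30_P01019676 had -5.92 in CX3CR1+ macrophages, -8.69 in Ly6C+ macrophages and 0.01 in neutrophils, and the difference was -5.93 log2. A_55_P2018176 had -4.93, -8.69 and 0.53, a difference of -5.46 log2. Both were at the Ly6C+ floor. Neither was at the CX3CR1+ floor, which follows from the naming rule, since 0 probes bright in neutrophils were there.

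The order of probes within each array does not change when an array is rescaled as a whole. With that order cut into 4 equal parts, 39580 probes (71.1%) fell into the same one on both arrays, and 11388 probes, 81.8% of the bright probes of each array, were bright on both. The top 25% of CX3CR1+ macrophages and the lowest 25% of neutrophils shared 79 probes, and the reverse pair shared 0. In CX3CR1+ macrophages 259 probes (0.465%) stood at least 50 percentile points above their neutrophil rank and 11 (0.0198%) at least 50 points below. At 25 points these counts were 2219 (3.99%) and 1884 (3.38%). The largest rise in rank was 85.7 points and the largest fall was 65.8 points. The largest rise started from the neutrophil floor, and the largest fall ended at the CX3CR1+ floor. The order of probes at a floor has no meaning, so rises from it and falls to it have no exact size. Not every limit gave more probes on the higher side: 156 probes in the top 10% of CX3CR1+ macrophages were below the 75th percentile of neutrophils, and 205 were so placed in the reverse direction.

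The balance of 5-fold calls, unlike the ranks, moved with the scaling. With each array centred on its median, differences rose by 0.49 and 4259 probes were higher against 3645 lower, so that lower probes fell from 64.6% to 46.1% of the calls. Quantile normalization, which gives both arrays the same distribution, raised the median difference by 0.83 and gave 3889 higher and 3574 lower (47.9% lower). Centring on the mean of the brightest 5% of probes raised the differences by 0.86 and gave 5827 higher and 2836 lower (32.7% lower). Centring on the lowest value of each array raised them by 1.04 and gave 6658 higher and 2517 lower (27.4% lower). A shift of 0.39 log2 was enough to bring the 2 directions to 3914 probes each. At 64-fold, higher probes outnumbered lower probes under all of these scalings, with 247 against 18 as deposited, 318 against 6 after centring on the median and 310 against 4 after quantile normalization. Balance at 64-fold would have needed a shift of -0.83, in the opposite direction.

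Control rows give a further view of the scale. The E1A and DCP names are those of control features on Agilent arrays, and the sources used here do not state how much of any control RNA was added. All 10 E1A rows were lower in CX3CR1+ macrophages, by a median of -1.38 with a range of -1.41 to -1.05. All 18 DCP rows were lower too, with a median of -1.32 and a range of -1.55 to -0.76. These rows spanned almost the whole range of brightness and stayed below 0, whereas the probe medians rose to 0.14 and fell again. The 96 rows with ERCC in their name had a median of -1.05 and ranged from -2.32 to 1.23, with 94 below 0. Of those 96 rows, 57 were at the floor of both arrays. The 16 other control rows, 14 of them at the floor of both arrays, ranged from -1.71 to -0.50. At the floor of both arrays, 9946 probes had a median difference of -1.04, which is the distance between the lowest values of both arrays and follows from how the floor was set. The 100 brightest neutrophil probes had a median difference of -1.39 and the 100 brightest CX3CR1+ probes one of -1.11, each set being chosen on 1 side of the difference. The median of the 10 E1A rows was 1.503 in CX3CR1+ macrophages and 2.76 in neutrophils. With each array centred on that median, differences rose by 1.26, with 7878 probes 5-fold higher and 2122 lower, or 21.2% lower. A shift of 1.38, the size of the median E1A difference, gave 8671 higher and 1937 lower. On the scale centred on the E1A medians 526 probes were 64-fold higher and 0 lower.

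**Figure D5:**
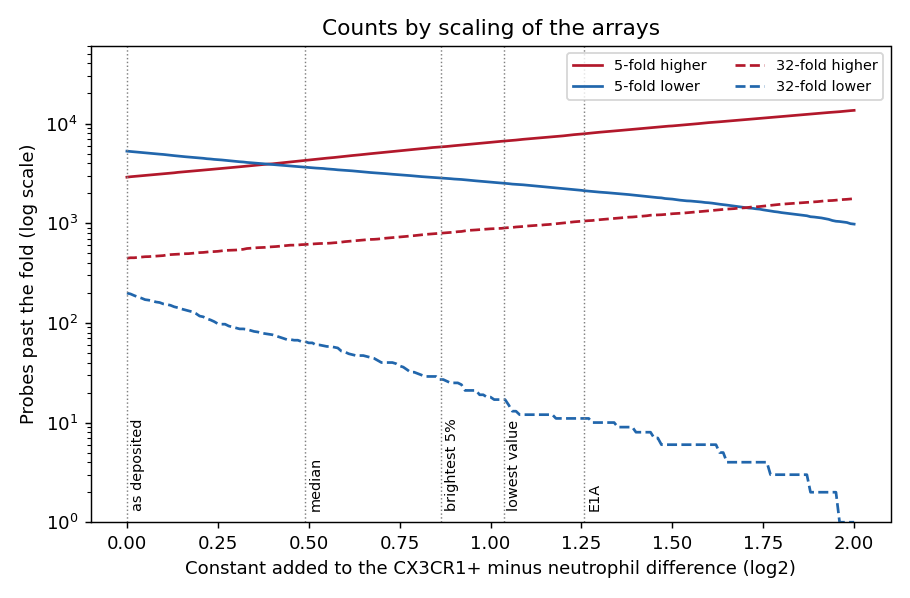
Number of probes at least 5-fold higher and lower in CX3CR1+ macrophages than in neutrophils when the difference is shifted by a constant (solid lines; dashed lines, 32-fold), on a log axis, with the shift of each centring marked. The solid lines cross at a shift of 0.39, with 3914 probes on each side, and the shift between the E1A medians gives 7878 higher and 2122 lower.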

How the data were processed

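Cy3 signal was measured on 1 array each for CX3CR1+ macrophages, neutrophils and Ly6C+ macrophages, grouped by the submitters' labels. The authors deposited log2 values, and the 75th percentile of each column lies at 0. The base of 2 is inferred from a count at 5-fold in the series description. Per the methods, signals came from GeneSpring GX with MAS 5.0 on an Affymetrix array, but the probe names are Agilent's, and no source used here gives the background correction. How signal near the background was treated could change all differences at the floor.

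From the 55681 probes, differences, ranks and counts at fold thresholds were computed with no filter on dim probes and no missing values. With 1 array per cell type there was no test, and the number of arrays limits the precision. Named probes are the 2 with the largest difference in each direction among probes bright on at least 1 of the 2 arrays. The comparison, probe sets and lists were chosen with earlier results of these data known. Gene lists and cell type markers were not used, since no table pairs probes with genes. Other centrings, quantile normalization, thresholds, floors and filters were tried. The counting was tested on simulated data. Python 3.11.15, numpy 2.4.6, pandas 2.3.3 and matplotlib 3.10.9 were used.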

Additional observations from a re-analysis of the deposited data

How the results depend on the processing

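Of 41 alternative values of the main counts and medians, 18 stayed close to the reported one. Close means a count within a ratio of 1.5 or a median within 0.1 log2. This limit ignores which direction held more probes. Centring on the median (4259 higher, 3645 lower) and quantile normalization (3889 and 3574) counted as close, although the larger side changed. Centring on the 75th percentile had to come out close, because the values already sit there. The median difference over all probes, -0.85, became -0.36 with centring on the median and -0.018 after quantile normalization. It turned positive with centring on the brightest 5% (0.015), on the lowest value (0.19, chosen after seeing the data) and on the E1A rows (0.41). In the brightest 25% of probes, -0.28 turned positive under each of these: 0.043 after quantile normalization, 0.21 with the median, 0.59 with the brightest 5%, 0.76 with the lowest value and 0.98 with the E1A rows. It was 0.11 where the Ly6C+ array defined the brightest 25%. The 5-fold counts, 2894 higher and 5280 lower, became 7878 and 2122 (E1A rows), 5827 and 2836 (brightest 5%) and 6658 and 2517 (lowest value). With only probes brighter than the median, 3327 were lower. The counts were 8303 and 24568 at 2-fold, and 1410 and 2583 at 10-fold. With bright meaning the top 10%, 4 probes in place of 75 were bright in CX3CR1+ macrophages and at the neutrophil floor. The count in the opposite direction was 0 under the 3 other limits as well. Each of these lay inside the main floor or brightness limit, so these 3 close values were fixed in advance.

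No paired analysis was possible because there is 1 array a side. With no replicate, the spread of any value is unknown. Signal over background is unknown too, since no detection call was used, and 17.9% of probes were at the floor of both arrays, where differences cannot be ranked.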
